A study of Mus musculus with 18 samples.

Results

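Hcrt, Pmch, Qrfp, Hdc, Lhx9 and Pdyn, genes of the arousal centres of the lateral and posterior hypothalamus, were followed across 18 arrays of mouse hypothalamus. They are 6 of the 19937 genes that the arrays measured with a probeset naming a single gene. Each was taken from the brightest such probeset, and each had only 1 (10391273 for Hcrt, 10365574 for Pmch, 10481560 for Qrfp, 10487238 for Hdc, 10358272 for Lhx9 and 10487613 for Pdyn), so the choice of probeset did not bear on any of them. The list was drawn up by name, with earlier results of these data known.

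The lateral hypothalamus holds intermingled neurons that make orexin or melanin-concentrating hormone and project through most of the brain. Orexin neurons keep waking stable, and their loss causes narcolepsy, while neurons that make melanin-concentrating hormone are most active in sleep and favour feeding. Behind them, the tuberomammillary nucleus holds the histamine neurons of the brain, which fire in waking. Hcrt encodes the orexin precursor and Pmch the precursor of melanin-concentrating hormone. Qrfp encodes an RFamide peptide of the lateral hypothalamus that acts on feeding and arousal. Hdc encodes histidine decarboxylase, the enzyme that makes histamine. Pdyn encodes prodynorphin, the precursor of opioid peptides that orexin neurons release beside orexin and that other hypothalamic neurons make too. Lhx9 encodes a LIM homeodomain transcription factor of developing orexin neurons, also known from the developing thalamus.

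The hypothalami came from wild-type mice and from mice mutant for Wfs1, which encodes the endoplasmic reticulum protein wolframin, on a 129SV background (129S6 in the text of the series). Each array carries a pair of genotype labels that can disagree, the ending of its title (10 ko, 8 wt) and its genotype field (9 KO, 9 WT). Groups are written here with the ending first: 5 arrays are ko/KO, 4 wt/WT, 5 ko/WT and 4 wt/KO, and the number after a group names the replicate. Neither label is taken as the true genotype, so each difference is stated between labels and not between genotypes. The second number in the title was lower on every array with the ending ko than on any with wt, while the field is mixed along it. What that number stands for is not known here, so a difference by ending cannot be told apart from one along that number. The labels give no allele, age, sex or treatment, and whether every array stands for its own animal is not said, so a p-value here reflects the spread among arrays alone, some of which may be technical.

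Values are the log2 levels deposited by the authors, with array medians between 7.10 and 7.19. In bulk tissue, fewer cells of a type and less RNA in each cell cannot be told apart. The targeted gene did not settle the labels, since Wfs1 was 0.18 higher, not lower, on arrays with the ending ko (SE 0.12, limma adjusted p = 0.884). Markers of the tissue were measured on every array, with Nkx2-1, a transcription factor of the developing hypothalamus, at 7.41 to 7.85 and Pomc, the arcuate melanocortin precursor, at 7.30 to 7.98. Markers of the neighbouring thalamus were also measured (Tcf7l2 at 9.79 to 10.28). A pair of arrays stood apart from the rest: ko/WT 4 had Xist, the RNA of the inactive X chromosome, at 5.93 against 10.31 to 10.79 elsewhere, and wt/WT 3 had Ttr, the choroid plexus transthyretin gene, at 12.8 against 8.01 to 10.62. Results that rest on these arrays are given without them as well, except where stated otherwise.

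The promoters of Pmch, Hdc and Pdyn are shown because those 3 genes had the highest correlations with one another across the arrays. Qrfp, Lhx9 and Hcrt all had lower ones with these 3 (r = -0.32 to 0.28), and of them only the promoter of Hcrt is shown, for contrast. Each is the 250 bases before the gene's RefSeq start on assembly GRCm38.p6, read 5′ to 3′ on the gene's strand. Capitals mark matches to TATAAA, a core promoter element searched on both strands, and to TGANTCA, the AP-1 site, which reads the same on both strands. The TATAAA matches shown all lay on the gene's strand. For Pdyn the first of 2 RefSeq starts is shown. The regions are chr10:88090822-88091071 (+ strand) for Pmch, chr2:126618679-126618928 (- strand) for Hdc, chr2:129699939-129700188 (- strand) for Pdyn and chr11:100762932-100763181 (- strand) for Hcrt.
Pmch: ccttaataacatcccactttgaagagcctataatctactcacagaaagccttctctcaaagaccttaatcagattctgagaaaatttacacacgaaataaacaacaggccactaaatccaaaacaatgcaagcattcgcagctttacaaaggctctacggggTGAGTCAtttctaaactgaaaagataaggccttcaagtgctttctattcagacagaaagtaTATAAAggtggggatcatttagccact
Hdc: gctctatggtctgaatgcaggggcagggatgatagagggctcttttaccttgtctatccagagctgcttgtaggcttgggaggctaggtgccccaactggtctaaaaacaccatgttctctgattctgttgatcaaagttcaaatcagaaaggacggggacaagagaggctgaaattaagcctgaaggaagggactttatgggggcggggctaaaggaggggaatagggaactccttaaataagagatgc
Pdyn: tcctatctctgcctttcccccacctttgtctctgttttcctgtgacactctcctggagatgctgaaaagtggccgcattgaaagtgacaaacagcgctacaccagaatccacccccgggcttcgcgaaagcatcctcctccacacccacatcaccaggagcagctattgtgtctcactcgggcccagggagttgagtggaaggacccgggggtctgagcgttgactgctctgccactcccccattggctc
Hcrt: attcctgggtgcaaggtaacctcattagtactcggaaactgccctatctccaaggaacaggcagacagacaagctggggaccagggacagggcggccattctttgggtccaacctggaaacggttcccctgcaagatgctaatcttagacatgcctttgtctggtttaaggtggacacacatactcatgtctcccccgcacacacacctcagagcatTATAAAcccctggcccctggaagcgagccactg
The Pmch window held TATAAA at bases -27 to -22 from the start and TGANTCA at -88 to -82. The Hcrt window held TATAAA at -33 to -28 and no TGANTCA. Neither motif was found in the windows of Hdc or Pdyn, at either Pdyn start. Among 32851 promoters of the same length, 12.4% held TATAAA on either strand and 6.75% held TGANTCA. Of the other motifs searched, CANNTG, the E-box, occurred in the windows of Pmch (-55 to -50), Hdc (-157 to -152) and Lhx9 (-233 to -228) and in 66.2% of all promoters. TGACG, the core of a cyclic AMP response element, searched on both strands, and the homeodomain motif TAATTA were in none of the 7 windows of the 6 genes, against 17.8% and 4.84% of all promoters. None of the motifs searched was found in all of the Pmch, Hdc and Pdyn windows, and no other motifs were looked for.

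Hcrt varied most of the 6 genes. It ran from 9.11 on array ko/KO 5 through a median of 9.68 to 10.06 on wt/KO 3, a 1.93-fold range, with an SD of 0.24 that was larger than the SD of 93.9% of all genes. On the ko/KO arrays it was 9.50, 10, 9.72, 9.63 and 9.11, and on the ko/WT arrays 9.79, 9.79, 9.66, 9.52 and 9.55. On the wt/KO arrays it was 9.67, 9.66, 10.06 and 9.78, and on the wt/WT arrays 9.68, 9.78, 9.78 and 9.17. The low arrays, ko/KO 5 and wt/WT 4, belong to opposite genotypes by both labels, and the next lowest array was at 9.50. All 4 groups overlap.

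Pmch ran from 11.36 (ko/KO 1) through a median of 11.77 to 12.1 (wt/KO 1), a 1.67-fold range. Its ko/KO values were 11.36, 11.61, 11.95, 11.86 and 11.99, and its ko/WT values 11.68, 11.76, 11.70, 11.42 and 11.96. Its wt/KO values were 12.10, 11.94, 11.86 and 11.52, and its wt/WT values 11.74, 11.77, 11.81 and 11.49. Every group but wt/WT spans more than 0.5 log2 units, and no group stands clear of another. The SD of 0.21 exceeded that of 88.3% of genes.

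Qrfp had the narrowest range of the 6 genes, 6.97 (ko/WT 5) to 7.45 (wt/WT 1) with a median of 7.11, or 1.39-fold. That median lay among the medians of all probesets on an array (7.10 to 7.19). No detection calls were used, so whether Qrfp stood above background was not tested. Its SD of 0.13 exceeded that of 49.7% of genes. The ko/KO arrays had 7.16, 7.21, 6.98, 6.99 and 7.03, and the ko/WT arrays 7.10, 7.11, 7.03, 6.99 and 6.97. The wt/KO arrays had 7.02, 7.09, 7.16 and 7.21, and the wt/WT arrays 7.45, 7.28, 7.30 and 7.23. All 4 wt/WT arrays lay above all other arrays, and the other 3 groups overlap one another.

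Hdc ran from 8.19 (wt/WT 4) through a median of 8.62 to 8.97 (wt/KO 2), a 1.72-fold range with an SD of 0.19. Levels were 8.49, 8.56, 8.54, 8.70 and 8.81 in ko/KO and 8.71, 8.42, 8.65, 8.35 and 8.46 in ko/WT. Levels were 8.86, 8.97, 8.77 and 8.73 in wt/KO and 8.52, 8.66, 8.58 and 8.19 in wt/WT. The wt/KO arrays all exceeded every ko/WT and every wt/WT array, and they overlapped ko/KO.

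Lhx9 ran from 7.95 (wt/KO 2) through a median of 8.33 to 8.68 (wt/KO 3), a 1.66-fold range with an SD of 0.21. Its lowest and its highest level thus fell in 1 group, wt/KO, with 8.28, 7.95, 8.68 and 8.02. The wt/WT arrays had 8.38, 8.08, 8.54 and 8.10, a narrower range. The ko/KO arrays had 8.53, 8.29, 8.30, 8.18 and 8.57, and the ko/WT arrays 8.24, 8.57, 8.35, 8.43 and 8.51.

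Pdyn was level on most arrays and low on 1. It ran from 7.59 (ko/WT 4) to 8.27 (wt/KO 2) with a median of 8.16, and the next lowest array, wt/WT 4, was at 7.97. The ko/KO arrays had 8.04, 8.17, 8.15, 8.2 and 8.17, and the ko/WT arrays 8.05, 8.16, 8.26, 7.59 and 8.13. The wt/KO arrays had 8.16, 8.27, 8.19 and 8.06, and the wt/WT arrays 8.17, 8.06, 8.21 and 7.97. The array low in Pdyn is the one low in Xist.

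**Figure D1:**
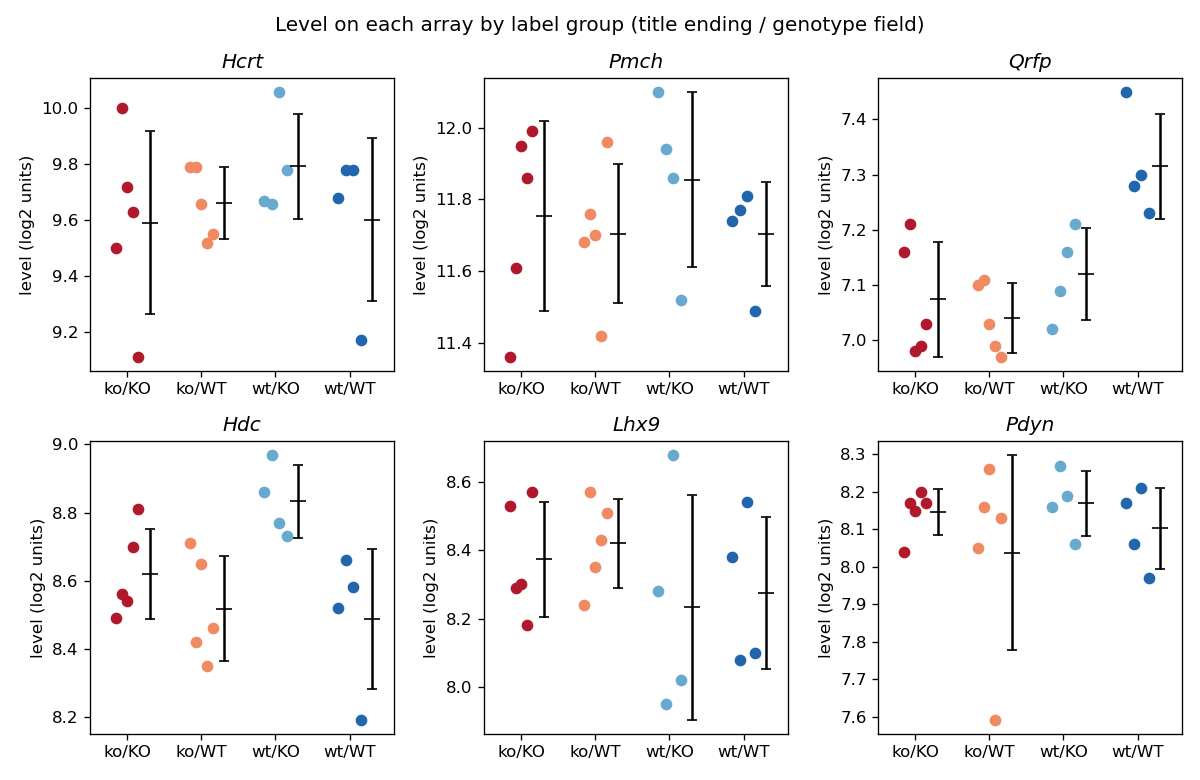
Level of each gene in log2 units (y axis, scaled to each gene and not starting at 0) on each of the 18 arrays, by label group with the title ending first and the genotype field second (x axis). Coloured points are arrays and the black bar is the group mean with its SD (n = 5, 5, 4 and 4). The 4 wt/WT arrays are the highest for Qrfp (7.23 to 7.45), the wt/KO arrays lie at 8.73 to 8.97 for Hdc, and 1 ko/WT array lies at 7.59 for Pdyn.

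No member differed between the genotype labels after adjustment over all genes, under either label or either combination of them. In each of those 4 comparisons 1 of the 6 genes passed an unadjusted p of 0.05, Qrfp or Hdc. Differences were fitted with limma over all 19937 genes and adjusted by the Benjamini-Hochberg method. No gene of any kind was called at an adjusted p of 0.05 (0% of genes in each of the 4 comparisons), and the lowest adjusted p was 0.884 by ending, 0.694 by field, 0.384 where the labels agree and 0.9998 where they contradict each other. The shares of all genes at an unadjusted limma p under 0.05 were 4.63% by ending (923 genes), 6.95% by field (1386), 11.1% where the labels agree (2218) and 2.74% where they contradict each other (546). One gene of 6 is a count too small to set apart from these shares.

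Qrfp was lower on arrays with the ending ko, where it was 7.06 ± 0.08 (SD, n = 10). With wt it was 7.22 ± 0.13 (SD, n = 8). The difference was -0.16 (SE 0.05, 95% interval -0.27 to -0.05), or 0.895-fold, with a limma adjusted p of 0.884 and an unadjusted two-sided exact permutation p of 0.00782. On the 9 arrays whose labels agree it was -0.24 (SE 0.08, limma adjusted p = 0.389, exact permutation p = 0.0159), with ko/KO at 6.98 to 7.21 and wt/WT at 7.23 to 7.45. The groups did not overlap, which was true of 2.82% of all genes (563). On the 9 arrays whose labels contradict each other the difference between the endings was -0.08 (SE 0.06, limma adjusted p = 0.9998, exact permutation p = 0.159), and by field it was -0.07 (SE 0.06, limma adjusted p = 0.772). The spread of all probesets on an array moved with Qrfp, as given further on, and it was 1.952 to 2.022 in ko/KO and 1.928 to 2.003 in wt/WT. Choroid plexus genes moved the same way: all 7 were lower in ko/KO than in wt/WT, 3 of them at an unadjusted limma p under 0.05, and the mean level of their list was 6.97 to 7.31 in ko/KO and 7.05 to 8.17 in wt/WT, highest on wt/WT 3. Leaving out single arrays kept the Qrfp difference between ko/KO and wt/WT at -0.28 to -0.20. The parts of the array spread and of the choroid plexus genes in it were not tested.

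Hdc was higher on arrays with the field KO, at 8.71 ± 0.16 (SD, n = 9) against 8.50 ± 0.17 (SD, n = 9) for WT. The difference was 0.21 (SE 0.07, 95% interval 0.06 to 0.36), or 1.16-fold, with a limma adjusted p of 0.694 and an unadjusted two-sided exact permutation p of 0.0156. It came mostly from the contradicting arrays, where ko/WT lay at 8.35 to 8.71 and wt/KO at 8.73 to 8.97 without overlap, as was true of 0.767% of all genes (153). There the difference of ko/WT from wt/KO was -0.31 (SE 0.08, limma adjusted p = 0.9998, exact permutation p = 0.0159). That unadjusted exact p is again the lowest possible and follows from the lack of overlap. Where the labels agree, ko/KO was 0.13 above wt/WT (SE 0.10, limma adjusted p = 0.606, exact permutation p = 0.333). By ending, Hdc differed by -0.09 (SE 0.08, limma adjusted p = 0.885).

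The other 4 genes differed by less than the spread between arrays. By ending, the difference of ko from wt was -0.07 for Hcrt (SE 0.10), -0.05 for Pmch (SE 0.09), 0.14 for Lhx9 (SE 0.09) and -0.04 for Pdyn (SE 0.07), with limma adjusted p-values of 0.911, 0.923, 0.884 and 0.915. By field, the difference of KO from WT was 0.05 for Hcrt (SE 0.10), 0.10 for Pmch (SE 0.09), -0.04 for Lhx9 (SE 0.09) and 0.09 for Pdyn (SE 0.07), with limma adjusted p-values of 0.908, 0.776, 0.900 and 0.736. The 95% intervals by ending left room for a difference from -0.28 to 0.14 in Hcrt, from -0.24 to 0.14 in Pmch, from -0.04 to 0.33 in Lhx9 and from -0.19 to 0.10 in Pdyn. The Pdyn difference by ending turned to 0.01 without array ko/WT 4, and the Hcrt difference by field turned to -0.01 without wt/WT 4.

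An effect of the ending that depends on the field was fitted in 1 model over the 18 arrays. Qrfp had an interaction of 0.23 (SE 0.09, limma adjusted p = 0.927), and Hdc one of -0.24 (SE 0.14, adjusted p = 0.927). Qrfp was the only 1 of the 6 at an unadjusted p under 0.05, a level that 5.18% of all genes reached. Ordered by group mean, the levels of Hcrt rose from ko/KO through wt/WT and ko/WT to wt/KO, those of Pmch from wt/WT through ko/WT and ko/KO to wt/KO, those of Lhx9 from wt/KO through wt/WT and ko/KO to ko/WT, and those of Pdyn from ko/WT through wt/WT and ko/KO to wt/KO. No neighbours in these 4 orders differed by more than the larger of their SDs. For Qrfp the order was ko/WT, ko/KO, wt/KO and wt/WT, and only the last step (0.20, larger SD 0.09) exceeded the SD. For Hdc it was wt/WT, ko/WT, ko/KO and wt/KO, and again only the last step did (0.21, larger SD 0.13).

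The 3 highest correlations among the 6 genes joined Pmch, Hdc and Pdyn. Array ko/WT 4 was low in all 3 (11.42, 8.35 and 7.59), as was wt/WT 4 (11.49, 8.19 and 7.97), while wt/KO 2 was high in all 3 (11.94, 8.97 and 8.27). Other arrays went against this. Array wt/KO 4 was low in Pmch (11.52) but not in Hdc (8.73), and ko/WT 5 was high in Pmch (11.96) but low in Hdc (8.46). Over the 18 arrays Pmch correlated with Pdyn at Pearson r = 0.62 (permutation p = 0.00282, adjusted over the 15 pairs 0.0423) and Spearman rho = 0.51 (permutation p = 0.0334, adjusted 0.167). This was the only 1 of the 15 pairs under 0.05 after adjustment by Pearson r, and none was by rho. Without the 2 arrays farthest from the Pmch median, ko/KO 1 and ko/WT 4, r was 0.52. Leaving out single arrays kept r between 0.59 and 0.65 but took the adjusted p to between 0.052 and 0.161 without any of ko/WT 1, wt/KO 2, wt/KO 3, ko/KO 3, ko/KO 4, ko/WT 4, ko/KO 5 or wt/WT 4.

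Pmch with Hdc and Hdc with Pdyn did not pass the adjusted threshold. Pmch and Hdc correlated at r = 0.58 (permutation p = 0.0113, adjusted 0.0848; rho = 0.52, permutation p = 0.029, adjusted 0.167), and at r = 0.51 without ko/KO 1 and ko/WT 4. Hdc and Pdyn correlated at r = 0.54 (permutation p = 0.021, adjusted 0.105; rho = 0.51, permutation p = 0.0319, adjusted 0.167), and at r = 0.46 without wt/KO 2 and wt/WT 4. All 3 correlations were above 0 among arrays of either label. These pairs were picked as the highest over the same arrays, so the signs within labels are no separate test. The values with the ending ko or the field WT include array ko/WT 4 and were not taken without it. Over all arrays, r without ko/WT 4 was 0.59 for Pmch with Pdyn, 0.52 for Pmch with Hdc and 0.52 for Hdc with Pdyn. For Pmch with Pdyn, r was 0.59 among the ending ko, 0.74 among wt, 0.72 among the field KO and 0.75 among WT. For Pmch with Hdc the values were 0.46, 0.72, 0.63 and 0.50, and for Hdc with Pdyn 0.56, 0.70, 0.62 and 0.48. Set among all genes as a description, 0.226% had a higher r with Pdyn than Pmch did, and 1.05% a higher r with Pmch than Pdyn did. For Hdc and Pdyn these shares were 0.697% (with Pdyn) and 1.35% (with Hdc), and for Pmch and Hdc they were 0.833% (with Hdc) and 1.61% (with Pmch).

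**Figure D2:**
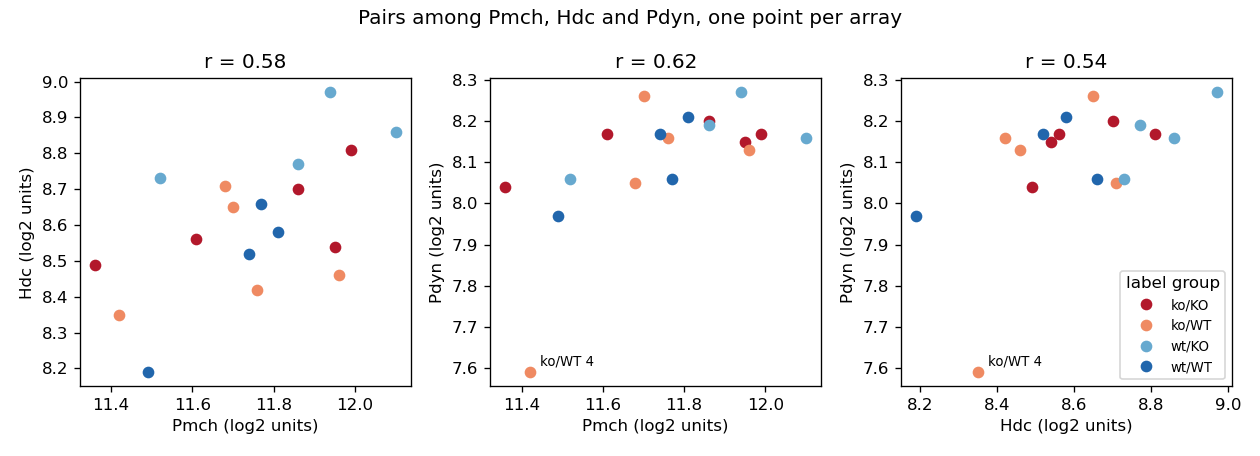
Levels in log2 units of Pmch against Hdc, Pmch against Pdyn and Hdc against Pdyn (axes not starting at 0), with 1 point for each of the 18 arrays coloured by label group. Pearson r is 0.58, 0.62 and 0.54, and array ko/WT 4 lies apart at a Pdyn level of 7.59.

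No correlation of Hcrt with the other 5 genes passed the adjusted threshold. Its r ran from 0.03 with Lhx9 through 0.08 with Pmch, 0.22 with Qrfp and 0.28 with Hdc to 0.28 with Pdyn, with adjusted permutation p-values between 0.668 and 0.979. With Pdyn, whose peptides orexin neurons also make, r was 0.15 among the ending ko and 0.55 among wt. With Hdc, r was -0.28 among the ending ko, 0.65 among wt, -0.15 among the field KO and 0.82 among WT, and whether these differ was not tested. That relation hung on single arrays, with r at 0.54 without ko/KO 5 and -0.01 without wt/WT 4.

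Lhx9, a factor of orexin neuron development, had r = 0.03 with Hcrt and between -0.22 (Hdc) and 0.08 (Pmch) with the rest. Qrfp had its lowest r with Pmch, -0.32 (permutation p = 0.198, adjusted 0.668; rho = -0.44), and stayed between -0.16 and 0.22 with the others. The sign of the weak correlations changed with the scaling, with Qrfp and Hdc at -0.16 as deposited and 0.01 after quantile normalization.

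**Figure D3:**
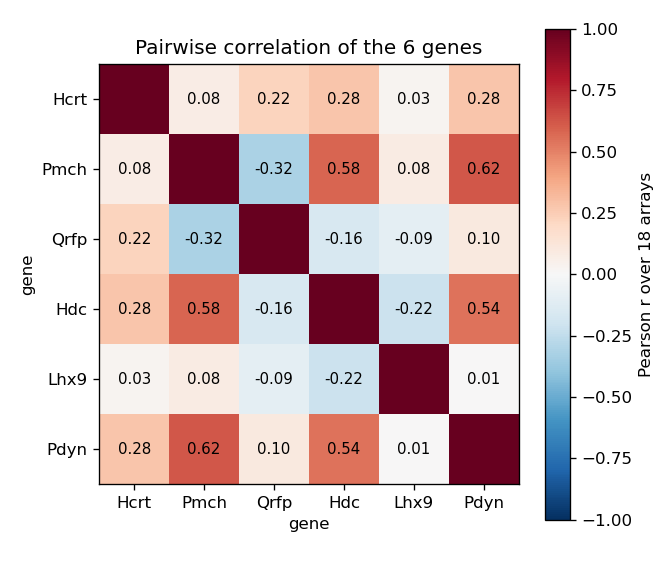
Pearson r over the 18 arrays for the 15 pairs of the 6 genes, printed in each square and coloured from blue (-1) to red (1). The 3 squares of Pmch, Hdc and Pdyn hold 0.54 to 0.62, and all others lie between -0.32 and 0.28.

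The level of Wfs1 split the arrays into 10 at 7.86 to 8.07 and 8 at 8.36 to 8.72, with none near the dividing value of 8.2. Both sides hold arrays of every label group. Arrays sorted by a measured level are no labelled group, so the sides were not compared by a test. Hdc had a lowest, median and highest level of 8.52, 8.71 and 8.97 on the low side and 8.19, 8.48 and 8.77 on the high side. Pmch had 11.52, 11.79 and 12.10 against 11.36, 11.69 and 11.96, and Lhx9 had 7.95, 8.26 and 8.57 against 8.10, 8.47 and 8.68. The medians of Hcrt (9.68 and 9.64), Qrfp (7.10 and 7.14) and Pdyn (8.17 and 8.14) lay within 0.05 of each other, and every gene's ranges overlap.

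Within the sides, none of the 12 relations of a member to the Wfs1 level passed an adjusted p of 0.05. Among the 8 arrays of the high side, Qrfp had r = 0.62 with Wfs1 (exact permutation p = 0.103, adjusted over the 12 relations 0.480; rho = 0.53, exact permutation p = 0.18, adjusted 0.553). Without the 2 arrays farthest from the median, ko/KO 1 and ko/KO 2, it was 0.48, and without wt/WT 4 it was 0.96 (adjusted exact permutation p = 0.0476). Among the 10 arrays of the low side, Hcrt had r = 0.55 with Wfs1 (permutation p = 0.0732, adjusted 0.480; rho = 0.29, permutation p = 0.415, adjusted 0.553). That r fell to 0.27 without the 2 farthest arrays and to -0.05 without ko/KO 5, so it rested on ko/KO 5, the lowest array for both genes. The remaining 10 relations had r between -0.45 (Pmch, low side) and 0.50 (Hcrt, high side).

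**Figure D4:**
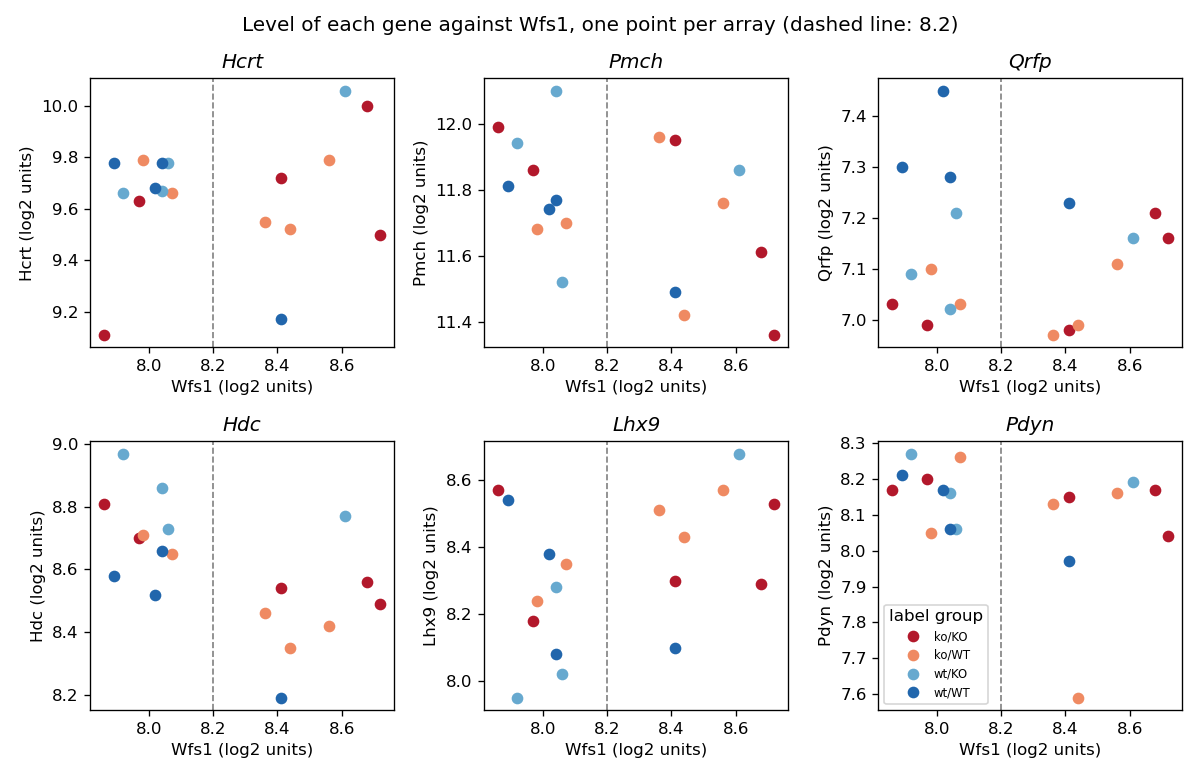
Level of each gene (y axis) against the level of Wfs1 (x axis), both in log2 units and not starting at 0, with 1 point for each of the 18 arrays coloured by label group. The dashed line is at 8.2: 10 arrays lie left of it and 8 right. Hdc reaches 8.97 on the left and 8.77 on the right, and the ranges of the 2 sides overlap for every gene.

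Regional marker genes moved with some members. Of 66 relations between a member and the mean level of a marker list, 2 passed an adjusted p of 0.05, both with the arcuate and tuberal list (9 of its 10 genes measured, among them Pomc, Agrp, Npy, Ghrh and Nr5a1). Hdc correlated with that list at r = 0.71 (permutation p = 0.00089, adjusted over the 66 relations 0.0294; rho = 0.61, adjusted 0.110) and at 0.68 without the 2 farthest arrays. Pdyn did so at r = 0.69 (permutation p = 0.00067, adjusted 0.0294; rho = 0.59, adjusted 0.114) and at 0.50 without the 2 farthest arrays. Of the 9 genes, 7 had a correlation above 0 with Hdc and 8 with Pdyn. The mean level of the list was 7.63 to 7.87 on arrays with the ending ko and 7.70 to 7.93 with wt. Both calls were lost without array ko/WT 4 (r = 0.66 and 0.57, adjusted permutation p = 0.107 and 0.16), and both also without ko/KO 1, wt/KO 2, ko/KO 4 or wt/WT 4. The Hdc call was lost without wt/KO 4 or ko/WT 5 too, and the part of the arcuate and tuberal genes in the correlations among Pmch, Hdc and Pdyn was not tested.

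With the oligodendrocyte list Pmch and Hdc had r = -0.54 and -0.53, neither of them called (adjusted permutation p = 0.143 for each), and all 5 measured myelin genes had the same sign. After quantile normalization the Pmch relation was -0.67 and called (adjusted permutation p = 0.0436). Hcrt correlated with the anterior hypothalamic list at r = 0.65 (permutation p = 0.00444, adjusted 0.0591; rho = 0.64, permutation p = 0.00549, adjusted 0.0906). That r was 0.34 without the 2 farthest arrays together and 0.49 to 0.76 without single ones, and after quantile normalization it was 0.69 and called (adjusted permutation p = 0.0436). The posterior and mammillary list, which marks the region around the histamine neurons, was not called with Hdc (r = 0.22, permutation p = 0.389, adjusted 0.687).

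Lhx9 rose together with 34 other genes, of which only 1 belonged to the list of lateral hypothalamic genes, and by rho with the markers of the thalamus. With the thalamus list (10 of 10 genes measured, 9 with a correlation above 0) it had r = 0.64 (permutation p = 0.0043, adjusted 0.0591) and rho = 0.72 (permutation p = 0.00114, adjusted 0.0376), and r = 0.74 without the 2 farthest arrays. The mean level of that list was 8.81 to 9.155 on arrays with the ending ko and 8.78 to 9.004 with wt. In a limma fit of every gene on the Lhx9 level, 34 of 19936 genes (0.171%) passed an adjusted p of 0.05, all rising with Lhx9. None of the 10 thalamus genes was among them, and of the 14 companion genes of the lateral hypothalamus only Nptx2 was (r = 0.81, limma adjusted p = 0.0464). The count was 22 without ko/KO 1, 15 without wt/KO 2, 17 without wt/KO 3, 7 without wt/KO 4 and 22 without wt/WT 4.

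The 3 genes most like Lhx9 were Syt9, a synaptotagmin (r = 0.86, limma adjusted p = 0.00468), the zinc finger factor Zic1 (r = 0.86, adjusted p = 0.00482) and Necab3, a calcium-binding protein (r = 0.86, adjusted p = 0.0046). Further genes of the 34 are named here after their values were seen. The choice leans to genes known from the habenula, and most of the 34 are not named. The smallest limma p of the 34 belonged to Lrrc55 (r = 0.85, limma adjusted p = 0.0046). Gpr151, an orphan receptor of habenular neurons, ran from 6.22 to 8.58 and had r = 0.77 with Lhx9 (limma adjusted p = 0.0149). The nicotinic receptor subunits Chrna3 (6.57 to 8.47, r = 0.80) and Chrnb4 (6.59 to 7.67, r = 0.79) are strongly expressed in the medial habenula. Tac2, the neurokinin B precursor (8.07 to 9.11, r = 0.81), is made there and in the arcuate nucleus. The choline transporter Slc5a7 (r = 0.77), the G protein gamma subunit Gng8 (r = 0.76) and the serotonin receptor Htr5b (r = 0.75) were called too. So were Zic2 (r = 0.83), Zic4 (r = 0.82) and Otx2 (r = 0.85), transcription factors of brain patterning. No list of habenular genes was tested, and the part of neighbouring tissue in the level of Lhx9 was not tested.

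Qrfp followed the spread of values on each array, that is the SD over all probesets, which ran from 1.93 to 2.04. Over the 18 arrays r was -0.70 (permutation p = 0.00124, adjusted over the 6 genes 0.00744) and rho -0.73 (permutation p = 0.00081, adjusted 0.00486), with r = -0.73 without the 2 farthest arrays. After quantile normalization, which gives every array the same spread, the levels of Qrfp still had r = -0.61 with the spread as deposited (permutation p = 0.00828). Of the other 5 genes only Pmch had an adjusted p under 0.05, by rho (0.65, permutation p = 0.00444, adjusted 0.0133) and not by r (0.43, adjusted 0.214). In the limma fit on the Qrfp level, 1729 genes (8.67%) passed an adjusted p of 0.05, and 0 did after quantile normalization, although the 3 most similar genes kept an r of 0.79 to 0.82. Leaving out single arrays gave between 194 genes (without ko/WT 5) and 2859 (without ko/KO 1), with counts of 1084 or fewer also without wt/WT 1, ko/KO 2, wt/KO 1, wt/KO 2, wt/WT 2, wt/WT 3, ko/KO 4, wt/KO 4 or ko/KO 5. The 3 genes most like Qrfp were Rab44, a large Rab GTPase (r = 0.85), Npw, the neuropeptide W precursor (r = 0.84), and Pdzk1ip1 (r = 0.83), each with a limma adjusted p of 0.0211. After quantile normalization their r with Qrfp was 0.82, 0.81 and 0.79 and their limma adjusted p 0.113. They had r = -0.63, -0.74 and -0.81 with the spread of the arrays. Qrfp also had r = 0.63 with the pituitary list (adjusted permutation p = 0.0591) and rho = 0.73 (adjusted permutation p = 0.0376). After quantile normalization that r was 0.47 (adjusted permutation p = 0.193). The mean level of the list was 5.46 to 5.91, near or below the lower quartile of all probesets on an array (5.81 to 6). Of its genes Gh, the growth hormone gene, ran from 5.90 to 6.92. With the choroid plexus list Qrfp had r = 0.61 (permutation p = 0.0124, adjusted 0.102) and rho = 0.58 (adjusted permutation p = 0.114). That r was 0.44 without the 2 farthest arrays, wt/WT 3 and wt/WT 1. Of the 7 choroid plexus genes 3 were called with Qrfp, Aqp1, Folr1 and Kcne2. With the posterior and mammillary list Qrfp had r = 0.58 (permutation p = 0.0121, adjusted 0.102), and 0.55 without the 2 farthest arrays. Barhl1 and Lmx1b of its 5 measured genes were called with Qrfp.

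**Figure D5:**
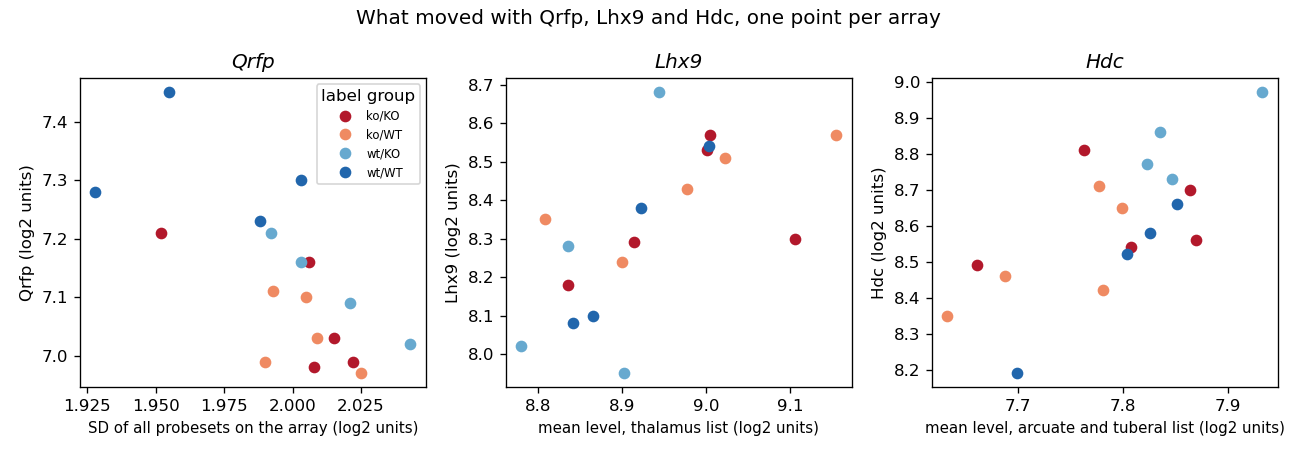
Left, Qrfp against the SD of all probesets on the array (r = -0.70). Middle, Lhx9 against the mean level of the thalamus list (r = 0.64). Right, Hdc against the mean level of the arcuate and tuberal list (r = 0.71). All axes are in log2 units and do not start at 0, and each point is 1 of the 18 arrays, coloured by label group.

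In the limma fit on the Hcrt level, 298 genes (1.49%) passed an adjusted p of 0.05, 181 rising with Hcrt and 117 falling. The count fell to 0 without ko/KO 5 and to 14 without ko/KO 2, and it rose to 1486 without wt/KO 3, to 1416 without wt/WT 4 and to 605 without wt/WT 1. It was 75 to 149 without any 1 of ko/KO 1, ko/WT 1, ko/WT 2, wt/KO 2, ko/WT 3, ko/KO 3, wt/WT 3, ko/KO 4, ko/WT 4, wt/KO 4 or ko/WT 5, so its size rests on single arrays. The genes most like Hcrt were Cuedc2 (r = 0.92, limma adjusted p = 0.0112), the membrane protein gene Tmem179 (r = 0.89, adjusted p = 0.00533) and Mia (r = 0.89, adjusted p = 0.00533). Each kept an r of at least 0.83 without any single array, though all 3 lost the call without ko/KO 5.

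No gene was called with the level of Pmch or of Hdc (0% each). The limma fit gave 2089 genes at an unadjusted p under 0.05 for Pmch and 1104 for Hdc. With Pmch the highest r belonged to Dnajc8, a splicing-associated co-chaperone (0.86, limma adjusted p = 0.139), Srp9, a part of the signal recognition particle (0.83, adjusted p = 0.174), and the nucleolar GTPase Gnl2 (0.82, adjusted p = 0.174). With Hdc it belonged to Gpr50, an orphan receptor related to the melatonin receptors and known from tanycytes (0.82, adjusted p = 0.146), Gng4, a G protein gamma subunit (0.79, adjusted p = 0.744), and Rcn1, a calcium-binding protein of the endoplasmic reticulum (0.79, adjusted p = 0.709). Gpr50 ran from 7.59 to 8.56.

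With the level of Pdyn, 2 genes were called (0.01%), Xist and Slc6a4, and 0 without array ko/WT 4. The highest r was that of Xist (0.86, limma adjusted p = 0.00294), which fell to 0.11 without ko/WT 4 and whose rho was 0.17, so this relation is 1 array low in both. Cirbp, the cold-inducible RNA-binding protein (r = 0.84, adjusted p = 0.0949), and F2rl2, a protease-activated receptor (r = 0.83, adjusted p = 0.118), followed, and without that array their r was 0.72 and 0.57. Slc6a4, the serotonin transporter, named after its values were seen, ran from 6.13 to 7.59 and had r = -0.84 with Pdyn (limma adjusted p = 0.008) and -0.72 without that array.

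None of the receptors of these peptides and of histamine was called by either label. All 8 were measured, 5 higher and 3 lower on arrays with the ending ko, with a median difference of 0.01 against 0.00 over all genes. The orexin receptor Hcrtr1 differed by 0.02 (SE 0.06) and Hcrtr2 by 0.00 (SE 0.07). Mchr1, the receptor of melanin-concentrating hormone, differed by -0.03 (SE 0.05), and Qrfpr, the receptor of the Qrfp peptide, by -0.07 (SE 0.05). The histamine receptors differed by -0.08 (Hrh1, SE 0.05), 0.03 (Hrh2, SE 0.06) and 0.03 (Hrh3, SE 0.06), and the kappa opioid receptor Oprk1, on which dynorphins act, by 0.08 (SE 0.08). By field, Hcrtr2 was 0.17 higher on KO arrays (SE 0.06, limma adjusted p = 0.694), with levels of 6.96 to 7.58 over the arrays, and it alone of the 8 was under an unadjusted p of 0.05.

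None of the 14 listed peptide and marker genes that share the lateral hypothalamus with the 6 was called by either label. By ending, 8 of 14 were higher and 6 lower, and the median difference was 0.01. The largest differences relative to error were in Slc17a6, the vesicular glutamate transporter (0.10, SE 0.05, limma adjusted p = 0.884), and Nptx2, a neuronal pentraxin (0.11, SE 0.06, adjusted p = 0.884). By field, 12 of 14 were higher on KO arrays with a median of 0.08, against 47.2% of all genes higher and a median of -0.01. Of 5 genes that transport or degrade histamine, 4 were measured. All 4 were higher with the ending ko, by a median of 0.09, with 0 called, against 51.8% of all genes higher. Maob, the monoamine oxidase that clears methylhistamine, differed by 0.11 (SE 0.08, adjusted p = 0.884) and Hnmt, the histamine methyltransferase, by 0.07 (SE 0.10, adjusted p = 0.907). Where the labels agree, 3 of the 4 were higher with the ending ko and 1 lower (median 0.23). Where the labels contradict each other, 1 was higher and 3 were lower (median -0.05).

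Across the arrays, several of the 14 had positive slopes on the levels of Pmch, Hdc and Pdyn, all of them above the adjusted threshold. With the level of Pmch, 6 of the 14 had an unadjusted limma p under 0.05 in the same direction (Crhbp, Gal, Nts, Nucb2, Tac1 and Trh), a level that 4.24% of all genes reached, and 0 of 14 in the opposite direction. With Hdc there were 5 (Crhbp, Gal, Nucb2, Tac1 and Trh) against 2.68% of all genes, and with Pdyn 5 (Gal, Igfbp3, Nts, Tac1 and Trh) against 1.37%. The fits include array ko/WT 4, the lowest in Pdyn, and these counts were not taken without it. Gal, Nts, Tac1 and Trh encode the precursors of galanin, neurotensin, substance P and thyrotropin-releasing hormone. None of these genes passed the adjusted threshold, the 3 fits use the same arrays, and none of the 8 receptors or the 4 histamine genes had an unadjusted p under 0.05 in them.

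On the levels of Hcrt and Qrfp most of the slopes that stood out were negative. With Hcrt, 4 of the 14 had a negative slope at an unadjusted limma p under 0.05 (Lepr, Nucb2, Slc17a6 and Tacr3), against 10.7% of all genes, and 1 a positive slope (Gal). Negative slopes at that level were also found for 3 of the 4 histamine genes (Hnmt, Maob and Slc18a2, the vesicular monoamine transporter) and, among the 8 receptors, Oprk1, while Hrh3 had a positive slope. With Qrfp, 4 had a negative slope (Crhbp, Penk, Slc17a6 and Tacr3), against 15.8% of all genes, as did the same 3 histamine genes. Tacr3, the neurokinin B receptor, passed the adjusted threshold with Qrfp (1 of the 14), as did Oprk1 (1 of the 8 receptors). Maob and Slc18a2 passed it too (2 of the 4 histamine genes). Of all genes 8.67% passed it, and no gene was called with Qrfp after quantile normalization. Slc18a2 is shared with dopamine neurons, whose transporter gene Slc6a3 ran from 9.06 to 10.75 over the arrays, and the mean level of the midbrain dopamine list had r = -0.58 with Qrfp and -0.51 with Hcrt (adjusted permutation p = 0.102 and 0.157).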

How the data were processed

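RNA was extracted with Trizol from dissected, frozen hypothalami and labelled by a whole-transcript method, per the labels' protocols. The authors deposited log2 levels (a scale read from the values, 1.11 to 14.54), treated here as already normalized. RMA and MAS5 are named in the submitters' processing notes without version or use. RMA compresses differences at low signal and between arrays, and which of the named methods gave these values is not said. The array model is not given in the sources used here, nor are scan dates, so batches could not be examined, and no detection calls were used.

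Of 34760 probesets, 21640 had 1 gene symbol, 1321 several and 11799 none; the brightest single-symbol probeset stood for each of 19937 genes. RefSeq (GRCm38.p6) matched 21553 of these probesets and changed 0 symbols, and its promoter table matched 6 of 6 members. Differences and slopes on a member's level were fitted with limma 3.58.1 (R 4.3.3; lmFit, eBayes, no covariates), tested on simulated data first, and adjusted by Benjamini-Hochberg over all genes at 0.05. Correlations used two-sided permutation tests (100000 resamples, exact where possible), adjusted within each family. Single differences used two-sided exact permutation tests (SciPy 1.17.1), whose p-values were not adjusted. Figures used matplotlib 3.10.9.

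The members, gene lists and tests were chosen with earlier results of these data known. Named genes are the members, the 3 genes of highest r with each (predicted and olfactory genes left out), all receptors, and the 2 genes of smallest p by ending in each other pathway list; others are said to be chosen after their values were seen or are listed by count. Alternatives were quantile normalization, the probeset choice, a filter on dim genes, trended robust moderation, Spearman's rho, label-group means or the thalamus list removed, and arrays left out. Regression on array spread was chosen after seeing the data. The number of arrays limits the precision.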

Additional observations from a re-analysis of the deposited data

Results flagged for a closer look

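Hcrt on array wt/WT 4 was 9.17, against 9.68 to 9.78 on the other 3 arrays of its group. The gap to the nearest of them was 0.836 of the group's range, just past Dixon's 95% critical value of 0.829 for 4 arrays. It was the only value past that limit among 24 combinations of a gene and a label group, and chance passes it in about 1 of 20. The same array held the lowest Hdc level of all 18 (8.19) and the second lowest Pdyn level (7.97).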

How the results depend on the processing

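In none of the 5 comparisons of labels was any gene called under any alternative. Genes called with the level of Hcrt (298) became 1806 after quantile normalization, 1445 without the dimmest 40% of genes, 1016 with trended robust moderation and 62 without the array low in Xist and that high in Ttr, and 0 to 1486 without single arrays. For Qrfp (1729) the count was 0 after quantile normalization, 1067 without the pair of arrays and 194 to 2859 without single arrays. For Pmch and Hdc (0) it was 1 with the filter and 1 with the moderation, and 0 to 1 without single arrays. For Lhx9 (34) single arrays gave 7 to 43. For Pdyn (2) it was 1 with the filter, 4 with the moderation, 0 without the pair of arrays and 0 to 4 without single arrays. The pair called among the 15 was lost (0 pairs) with quantile normalization, Spearman's rho, the pair of arrays left out, label-group means removed or, chosen after seeing the data, array spread regressed out; r between Pmch and Pdyn stayed at 0.51 to 0.61 there. Regressing out the thalamus list gave 2 pairs, and single arrays 0 to 2. Relations to marker lists (2) became 4 with quantile normalization (adding Hcrt with the anterior list and Pmch with the oligodendrocyte list), 0 without the pair of arrays and 0 to 5 without single arrays, and those to Wfs1 (0) became 0 to 1.

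Correlations near 0 changed sign. Hcrt with Pmch became -0.0073 by Spearman's rho and -0.0017 with group means removed (single arrays -0.10 to 0.31). After quantile normalization Hcrt with Lhx9 was -0.0051, Qrfp with Hdc 0.011, Qrfp with Lhx9 0.0032 and Lhx9 with Pdyn -0.0066. With array spread regressed out, Qrfp with Hdc was 0.10, Qrfp with Lhx9 0.038 and Lhx9 with Pdyn -0.030. With the thalamus list regressed out, Pmch with Lhx9 was -0.0059, Qrfp with Lhx9 0.033 and Hdc with Lhx9 0.016. Qrfp with Lhx9 was 0.17 with group means removed, and Qrfp with Pdyn -0.34 without the pair of arrays. Without that pair, Pdyn by ending was 0.022 and Hcrt where the labels agree 0.049. Without single arrays the ranges that crossed 0 were -0.18 to 0.24 (Hcrt, Lhx9), -0.0055 to 0.54 (Hcrt, Hdc), -0.022 to 0.22 (Pmch, Lhx9), -0.24 to 0.15 (Qrfp, Pdyn) and -0.060 to 0.20 (Lhx9, Pdyn). For Wfs1 on the low side they were -0.047 to 0.75 (Hcrt) and -0.058 to 0.33 (Qrfp). Differences that crossed 0 were those of Pdyn by ending (-0.068 to 0.012), Hcrt and Lhx9 by field (-0.013 to 0.12 and -0.091 to 0.00069), Hcrt, Pmch and Pdyn where the labels agree (-0.15 to 0.11, -0.019 to 0.15 and -0.00067 to 0.079), and the receptors Mchr1 (-0.043 to 0.0024), Hrh3 (-0.014 to 0.052), Hcrtr1 (-0.017 to 0.041) and Hcrtr2 (-0.051 to 0.035). The cause was not tested for any of these. No paired analysis was possible because the replicate numbers follow accession order and the title numbers pair no arrays.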
